A study of Mus musculus with 9 samples.

Results

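The 10 genes described here mark endothelial cells and were followed through heart cell preparations of the mouse: Cdh5, Pecam1, Tek, Tie1, Emcn, Kdr, Flt1, Cldn5, Ramp2 and Clec14a. They were chosen by name, with earlier results of these data known, as a check on endothelial cells in these preparations. Each was read from the array probe annotated to that gene alone with the highest mean, which makes 10 of the 19933 genes measured. All 10 were found, with 1 such probe each. The 3 groups were cardiac fibroblasts of adult mice, cardiac fibroblasts of mouse embryos, and embryonic cardiomyocytes, which the series describes as positive for an Nkx-YFP reporter. Each group had 3 biological replicates, each on its own Affymetrix mouse Gene 1.0 ST array, 9 arrays in all. The stage of the embryos, the age, sex and strain of the adults, the way the fibroblasts were separated from other heart cells, any culture, and the promoter that drives YFP have no label in the sources used here. Values are log2 expression values made with RMA, a method that corrects background, normalizes arrays to each other and condenses the probes of a transcript into 1 number.

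Endothelial cells line every blood vessel and, as endocardium, the chambers of the heart. Their junctions are held by VE-cadherin (Cdh5), PECAM-1 (Pecam1, also found on platelets and white blood cells) and claudin-5 (Cldn5), and they respond to VEGF through Kdr and Flt1 and to angiopoietins through Tek, with Tie1 as its partner. Cardiomyocytes and fibroblasts carry little of these proteins, so their transcripts in a bulk preparation are commonly read as a sign of endothelial cells, although in bulk RNA fewer endothelial cells and less of a transcript per cell cannot be told apart.

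Of the 10 genes, 9 were higher in embryonic fibroblasts than in embryonic cardiomyocytes, by 1.56-fold (Clec14a) to 3.58-fold (Emcn), where 10.3% of all genes measured were called higher. Cldn5 was the exception, with 1.03-fold between these groups. Between the fibroblast preparations the genes divided. Ramp2, Emcn, Tek and Clec14a were lower in adult fibroblasts (11.2% of all genes were), Cldn5 was higher there (8.34% of all genes), and the other 5 did not pass the test. Against cardiomyocytes, adult fibroblasts had more Cdh5, Pecam1, Tek, Flt1 and Cldn5, 5 of the 10, beside 17.4% of all genes. Differences were tested with limma over all 9 arrays, two-sided, and called at a p below 0.05 after Benjamini-Hochberg adjustment across all 19933 genes.

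The arrays had medians of 7.60 to 7.65 over all probes. Replicate 3 of the adult fibroblasts stood apart: its values correlated with those of its own group at a mean r of 0.970, against 0.981 for each of the other 2 arrays of adult fibroblasts, and their SD over probes was 1.71, against 1.83 and 1.85. Without it, the same members passed in the same direction in all 3 comparisons. The labels were set beside markers of the named cell types. The mean of 8 fibroblast markers lay at 10.98 to 11.16 on adult fibroblast arrays, at 10.21 to 10.42 on embryonic fibroblast arrays and at 8.59 to 9.01 on cardiomyocyte arrays. The mean of 10 cardiomyocyte markers lay at 7.81 to 8.22 in adult fibroblasts, 10.76 to 11.50 in embryonic fibroblasts and 12.40 to 12.53 in cardiomyocytes, so the embryonic fibroblast preparation held cardiomyocyte transcripts without overlap above the adult one. RMA values hold no background level per probe, so whether a gene was absent from a preparation cannot be read from them, and levels of different genes are not compared here.

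Because 9 of the members moved together, the sequence upstream of their starts was looked at for the letters of ETS and GATA factor sites, which are known from endothelial promoters. The RefSeq promoter table of GRCm38.p6 held 7 of the 10: Tek, Tie1, Emcn, Kdr, Flt1, Cldn5 and Clec14a. The letters AGGAAG, an ETS core, were found on either strand of the 250 bases before the start in 3 of these 7 windows and in 29.5% of all 32851 windows of the same kind. The longer ETS site CCGGAAGT, which does not contain AGGAAG, was in 2.88% of all windows and the GATA site AGATAA in 9.99%, and neither was in the 7. The windows with a match are shown for Flt1 (chr5:147726012-147726261, minus strand), Tie1 (chr4:118489850-118490099, minus strand) and Emcn (chr3:137340828-137341077, plus strand). That of Cldn5 (chr16:18776597-18776846, plus strand), the member that did not rise with them, follows. The windows of Tek, Kdr and Clec14a, members that were also called higher in embryonic fibroblasts than in cardiomyocytes, held no match either. Capitals mark AGGAAG or, for a match on the other strand, its reverse complement CTTCCT, and each run is given 5′ to 3′ along the gene.
Flt1: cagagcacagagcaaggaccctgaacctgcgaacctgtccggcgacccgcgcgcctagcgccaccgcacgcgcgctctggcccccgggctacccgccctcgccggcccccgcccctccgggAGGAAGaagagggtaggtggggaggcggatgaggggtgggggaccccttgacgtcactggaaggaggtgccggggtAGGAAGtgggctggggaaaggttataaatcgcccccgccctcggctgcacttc
Tie1: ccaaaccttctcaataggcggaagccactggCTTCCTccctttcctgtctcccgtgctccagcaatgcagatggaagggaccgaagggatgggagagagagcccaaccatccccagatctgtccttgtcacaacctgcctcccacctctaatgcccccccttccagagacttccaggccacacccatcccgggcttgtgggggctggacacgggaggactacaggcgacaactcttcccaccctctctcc
Emcn: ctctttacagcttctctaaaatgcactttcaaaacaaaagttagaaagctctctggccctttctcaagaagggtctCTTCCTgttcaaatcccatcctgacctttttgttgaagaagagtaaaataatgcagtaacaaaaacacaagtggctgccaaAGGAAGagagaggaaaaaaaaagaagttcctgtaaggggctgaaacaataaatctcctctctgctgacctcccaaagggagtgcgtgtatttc
Cldn5: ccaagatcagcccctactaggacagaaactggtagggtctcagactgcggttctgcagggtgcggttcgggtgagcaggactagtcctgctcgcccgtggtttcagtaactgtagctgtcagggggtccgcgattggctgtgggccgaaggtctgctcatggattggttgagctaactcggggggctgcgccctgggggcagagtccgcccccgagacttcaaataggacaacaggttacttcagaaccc
Matches began 129 and 53 bases before the start of Flt1, 219 bases before that of Tie1, and 174 and 93 bases before that of Emcn. They describe letters, and no binding was measured.

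**Figure D1:**
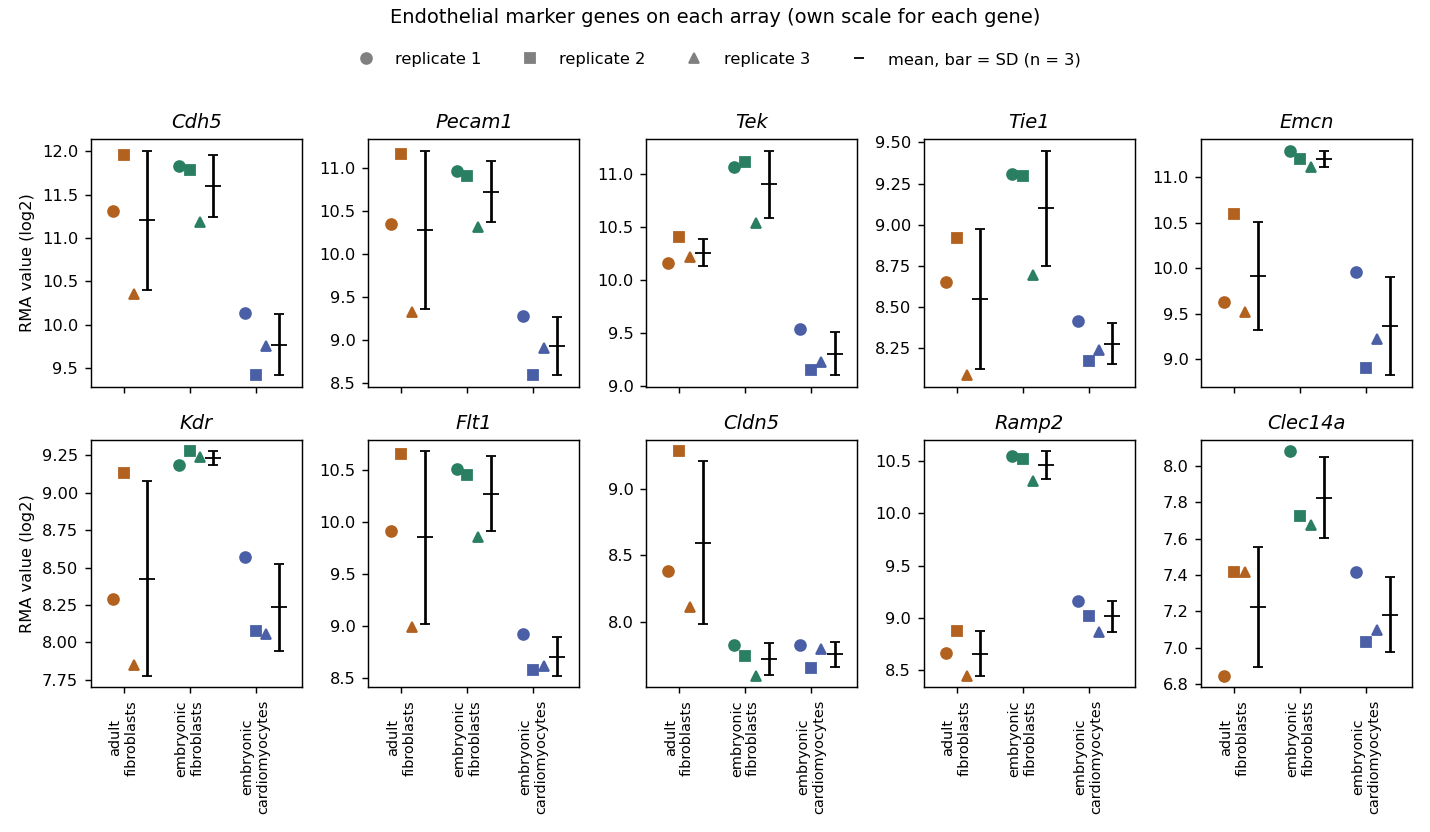
RMA value (log2, y axis, a scale of its own for each gene) of the 10 endothelial marker genes on each of the 9 arrays; symbols are replicates, the black bar is the mean with its SD (n = 3). In 9 panels the embryonic fibroblasts lie above the cardiomyocytes, and in the panel of Cldn5 the adult fibroblasts lie above both embryonic groups.

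VE-cadherin and PECAM-1 followed each other closely. Cdh5 had 11.31, 11.95 and 10.36 in adult fibroblasts, 11.83, 11.79 and 11.18 in embryonic fibroblasts, and 10.13, 9.42 and 9.76 in cardiomyocytes (log2 RMA value, replicates 1 to 3). All fibroblast arrays, adult and embryonic, lay above all cardiomyocyte arrays, and the adult arrays spanned the range of the embryonic ones. Embryonic fibroblasts exceeded cardiomyocytes by 1.83 ± 0.37 (log2, SE; 3.55-fold; limma, adjusted p = 0.00654). Adult fibroblasts exceeded cardiomyocytes by 1.44 ± 0.37 (2.71-fold, adjusted p = 0.0126), a call lost without cardiomyocyte replicate 2 (adjusted p = 0.0551). Between adult and embryonic fibroblasts the difference of -0.39 had a 95% confidence interval of -1.22 to 0.44 and did not pass (adjusted p = 0.510).

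Pecam1 had 10.36, 11.17 and 9.33 in adult fibroblasts, 10.96, 10.91 and 10.32 in embryonic fibroblasts, and 9.28, 8.60 and 8.91 in cardiomyocytes. As for Cdh5, every fibroblast array was above every cardiomyocyte array, but replicate 3 of the adult fibroblasts was only just above cardiomyocyte replicate 1. The difference of embryonic fibroblasts from cardiomyocytes was 1.80 ± 0.40 (3.48-fold, adjusted p = 0.0112), and that of adult fibroblasts from cardiomyocytes was 1.36 ± 0.40 (2.56-fold, adjusted p = 0.0259). Without cardiomyocyte replicate 2 these did not pass (adjusted p = 0.0515 and 0.0958), and the second was also lost without adult fibroblast replicate 1 or 2, without cardiomyocyte replicate 3 and with only the 2 groups in the fit. Adult and embryonic fibroblasts overlapped, with a difference of -0.44 (95% interval -1.35 to 0.46, adjusted p = 0.496).

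Claudin-5, the main claudin of endothelial tight junctions, took another course. Cldn5 had 8.39, 9.28 and 8.11 in adult fibroblasts, 7.83, 7.74 and 7.59 in embryonic fibroblasts, and 7.83, 7.65 and 7.79 in cardiomyocytes. Every adult array was above every embryonic array of either kind, while the embryonic groups lay on top of each other. Their difference was -0.04 with a 95% interval of -0.59 to 0.52 (adjusted p = 0.953), an interval that ends below the differences of Cdh5 and Pecam1. Adult fibroblasts were higher than embryonic fibroblasts by 0.87 ± 0.25 (1.83-fold, adjusted p = 0.0352) and higher than cardiomyocytes by 0.84 ± 0.25 (1.79-fold, adjusted p = 0.0252). Both calls were lost with only the 2 groups in the fit (adjusted p = 0.104 and 0.0650) and without any single cardiomyocyte array; the first was also lost without any single embryonic fibroblast array.

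Tek, the receptor of angiopoietins, was the receptor with the tightest adult replicates. It had 10.16, 10.41 and 10.22 in adult fibroblasts, 11.07, 11.12 and 10.54 in embryonic fibroblasts, and 9.54, 9.15 and 9.23 in cardiomyocytes. The 3 groups did not overlap, with embryonic fibroblasts highest and cardiomyocytes lowest. Embryonic fibroblasts were above cardiomyocytes by 1.61 ± 0.16 (3.04-fold, adjusted p = 0.000257). Adult fibroblasts were above cardiomyocytes by 0.96 ± 0.16 (1.94-fold, adjusted p = 0.00132), the only one of the 5 calls in that comparison that held under all 17 other settings tried. Adult fibroblasts were below embryonic ones by 0.65 (log2 difference -0.65 ± 0.16, 1.57-fold, adjusted p = 0.0216), a call lost without adult replicate 1 or embryonic fibroblast replicate 1 or 2 (adjusted p = 0.0686, 0.0852 and 0.0832).

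Tie1, an orphan receptor that works with Tek, had 8.65, 8.92 and 8.08 in adult fibroblasts, 9.31, 9.30 and 8.70 in embryonic fibroblasts, and 8.41, 8.17 and 8.24 in cardiomyocytes. Embryonic fibroblasts lay above cardiomyocytes on every array, and adult fibroblasts overlapped with both. The rise over cardiomyocytes in embryonic fibroblasts was 0.83 ± 0.22 (1.77-fold, adjusted p = 0.0269), and it was lost without embryonic fibroblast replicate 1 or 2 and without any single cardiomyocyte array (adjusted p = 0.0567 to 0.104). The adult difference from embryonic fibroblasts was -0.55 (95% interval -1.05 to -0.05, adjusted p = 0.130), and that from cardiomyocytes was 0.27 (adjusted p = 0.385). The first passed without embryonic fibroblast replicate 3 (-0.75, adjusted p = 0.0483) and with array weights (-0.51, adjusted p = 0.0369), and the second passed with array weights (0.45, adjusted p = 0.0474).

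The VEGF receptors differed in the adult preparation. Kdr (VEGFR2, the main signalling receptor of VEGF-A) had 8.29, 9.13 and 7.85 in adult fibroblasts, 9.19, 9.28 and 9.24 in embryonic fibroblasts, and 8.57, 8.08 and 8.06 in cardiomyocytes. The embryonic fibroblast arrays were the highest and spanned 0.09, whereas the adult arrays reached from below the lowest cardiomyocyte array to just below the embryonic fibroblasts. Embryonic fibroblasts exceeded cardiomyocytes by 1.00 ± 0.28 (adjusted p = 0.0307), a call lost without any single embryonic fibroblast array and without cardiomyocyte replicate 2 or 3 (adjusted p = 0.0739 to 0.109). Adult fibroblasts were not called different from embryonic ones (-0.81 ± 0.28, adjusted p = 0.0768) or from cardiomyocytes (0.19 ± 0.28, adjusted p = 0.639). Without adult replicate 2 the first of these became -1.16 and passed (adjusted p = 0.00314), and it also passed with array weights (-0.69, adjusted p = 0.0404).

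Flt1 (VEGFR1, which binds VEGF-A, VEGF-B and placental growth factor) had 9.91, 10.65 and 8.99 in adult fibroblasts, 10.51, 10.46 and 9.86 in embryonic fibroblasts, and 8.92, 8.58 and 8.61 in cardiomyocytes. All fibroblast arrays were above all cardiomyocyte arrays, adult replicate 3 by the least. The difference of embryonic fibroblasts from cardiomyocytes was 1.57 ± 0.36 (2.98-fold, adjusted p = 0.0122), and that of adult fibroblasts was 1.15 ± 0.36 (2.22-fold, adjusted p = 0.0317). The first fell just short without embryonic fibroblast replicate 1 or 2 or cardiomyocyte replicate 2 (adjusted p = 0.0501 to 0.0530). The second was lost without adult replicate 1 or 2, without any single cardiomyocyte array and with only the 2 groups in the fit (adjusted p = 0.0589 to 0.0966). Between adult and embryonic fibroblasts Flt1 differed by -0.42 (95% interval -1.23 to 0.38, adjusted p = 0.466).

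Endomucin, a sialomucin of capillary, venous and endocardial surfaces, separated embryonic fibroblasts from both other groups. Emcn, whose upstream window held a pair of ETS letter matches, had 9.63, 10.60 and 9.51 in adult fibroblasts, 11.29, 11.20 and 11.11 in embryonic fibroblasts, and 9.96, 8.91 and 9.22 in cardiomyocytes. The embryonic fibroblast arrays spanned 0.18 and lay above all others, and adult fibroblasts overlapped with cardiomyocytes. Embryonic fibroblasts exceeded cardiomyocytes by 1.84 ± 0.31 (3.58-fold, adjusted p = 0.00288). Adult fibroblasts were lower than embryonic ones (-1.29 ± 0.31, 2.44-fold, adjusted p = 0.0177), and without adult replicate 1 or embryonic fibroblast replicate 1 or 2 this call was lost (adjusted p = 0.0610, 0.0635 and 0.0537). The difference between adult fibroblasts and cardiomyocytes, 0.55 ± 0.31, did not pass (adjusted p = 0.215).

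Ramp2, the partner that turns the receptor Calcrl into a receptor for adrenomedullin, had the largest difference of the 10 genes between the fibroblast preparations. It had 8.66, 8.88 and 8.44 in adult fibroblasts, 10.55, 10.52 and 10.31 in embryonic fibroblasts, and 9.16, 9.02 and 8.86 in cardiomyocytes. Embryonic fibroblasts stood above both other groups on every array, while the highest adult array just reached into the range of the cardiomyocytes. Embryonic fibroblasts exceeded cardiomyocytes by 1.45 ± 0.13 (2.73-fold, adjusted p = 0.000129). Adult fibroblasts were lower than embryonic fibroblasts (-1.80 ± 0.13, 3.48-fold, adjusted p = 1.59e-05). The adult difference from cardiomyocytes was -0.35 ± 0.13 (adjusted p = 0.0573), so Ramp2 was the only member whose adult mean lay below that of the cardiomyocytes; it passed without adult replicate 2 (-0.46, adjusted p = 0.0215) or cardiomyocyte replicate 3 (-0.43, adjusted p = 0.0472).

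Clec14a, a C-type lectin of vessel walls, had the smallest difference among the called members in both comparisons it passed. It had 6.84, 7.42 and 7.42 in adult fibroblasts, 8.08, 7.72 and 7.67 in embryonic fibroblasts, and 7.42, 7.03 and 7.10 in cardiomyocytes. Embryonic fibroblasts lay above both other groups, which overlapped. They exceeded cardiomyocytes by 0.64 ± 0.18 (1.56-fold, adjusted p = 0.0318), and adult fibroblasts were lower than embryonic fibroblasts (-0.60 ± 0.18, 1.52-fold, adjusted p = 0.0463). The first call was lost without embryonic fibroblast replicate 1 or 2 or cardiomyocyte replicate 2 or 3 (adjusted p = 0.0664 to 0.123). The second was lost without any single array other than adult replicate 2 or 3 (adjusted p = 0.0528 to 0.162), with arrays centred on their median (0.0521) and with only the 2 groups in the fit (0.0939). Adult fibroblasts and cardiomyocytes differed by 0.04 (95% interval -0.37 to 0.45, adjusted p = 0.877).

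**Figure D2:**
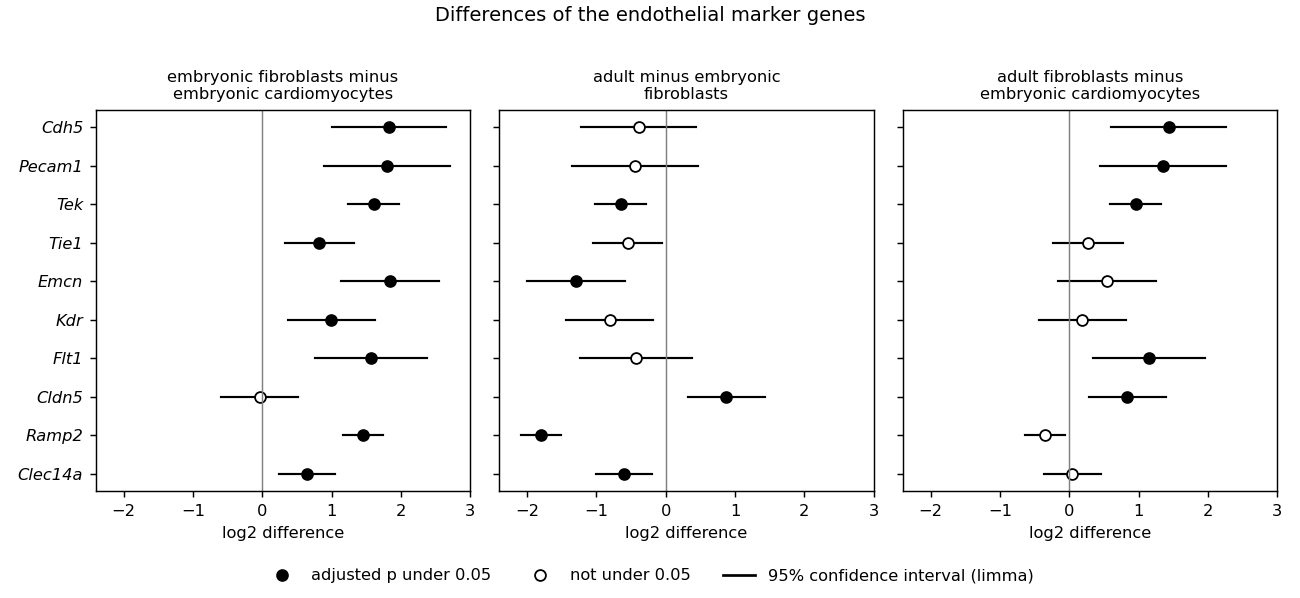
Log2 difference (x axis) of each endothelial marker gene in the 3 comparisons, with the 95% confidence interval of the limma fit; filled points passed an adjusted p of 0.05. In the left panel 9 of 10 points lie to the right of 0 and are filled, in the middle panel Ramp2 at -1.80 lies farthest left and Cldn5 at 0.87 alone lies right of 0, and in the right panel 5 points are filled.

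Counted together, 9 of the 10 members rose in embryonic fibroblasts over cardiomyocytes, where 10.3% of all 19933 genes were called higher, and the median of the members was 1.51, against -0.0003 for all genes. No member was called lower, beside 11.1% of all genes, and none had an unadjusted limma p under 0.05 on that side. The same 9 were higher without overlap of the groups, as were 19.3% of all genes. Cdh5, Tek, Emcn and Ramp2 kept their call under all 17 other settings. The count fell to 5 without embryonic fibroblast replicate 1, to 5 without replicate 2 and to 4 without cardiomyocyte replicate 2.

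Between adult and embryonic fibroblasts, Cldn5 was called higher, as were 8.34% of all genes, and 4 members were called lower, as were 11.2% of all genes. The median of the members was -0.58, and that of all genes 0.04. Groups did not overlap for Cldn5 on the higher side (16.9% of all genes) and for 5 members on the lower side, Kdr beside the 4 called ones (16.1% of all genes). Ramp2 was the member that passed under all 17 other settings. Leaving out adult replicate 1, embryonic fibroblast replicate 1 or embryonic fibroblast replicate 2 took the count on the lower side to 1.

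Between adult fibroblasts and embryonic cardiomyocytes, 5 of 10 members were called higher, where 17.4% of all genes were, with a median of 0.69 for the members and 0.06 for all genes. The same 5 were higher without overlap, as were 24.2% of all genes. Of all genes 18.2% were called lower, and no member was. Ramp2 was the member with an unadjusted limma p under 0.05 on that side. The count was 1 without cardiomyocyte replicate 2, 2 without cardiomyocyte replicate 3, and 3 without adult replicate 1, adult replicate 2 or cardiomyocyte replicate 1. These 3 comparisons share arrays, each group entering a pair of them, so the same genes standing out in more than 1 of them is not separate evidence.

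The members varied between replicates more than most genes did. In adult fibroblasts, with replicate 3 that stood apart included, their SD over 3 arrays had a median of 0.60, against 0.14 for all genes. In embryonic fibroblasts and cardiomyocytes this median was 0.27 and 0.21, against 0.10 in each. The widest span was that of Pecam1 in adult fibroblasts, 3.58-fold between the highest and the lowest array, followed by Flt1 with 3.16-fold and Cdh5 with 3.03-fold. Tek spanned 1.19-fold on the same arrays. Cardiomyocyte arrays spanned 2.07-fold for Emcn.

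The spread had a common order. In adult fibroblasts, replicate 2 was highest for 9 of the 10 members and replicate 3 lowest for 8. Over all genes, replicate 2 was highest for 24.0% and replicate 3 lowest for 32.1%. Replicate 3, the array that stood apart from its group, was also highest for 46.5% of all genes. In embryonic fibroblasts, replicate 3 was lowest for 9 members (40.9% of all genes), Kdr being the exception. In cardiomyocytes, replicate 1 was highest for all 10 members (31.5% of all genes) and replicate 2 lowest for 8 (22.8%). The member transcripts of 1 array thus moved together against its replicates. Since all members of an array share its RNA, these orders are a description.

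Markers of other cells had orders of their own on the same arrays. Among adult fibroblasts, replicate 2 was also highest for 9 of 12 macrophage markers and 7 of 10 mural cell markers, but for fibroblast markers replicate 1 was highest for 6 of 8. Among embryonic fibroblasts, replicate 3, lowest for the endothelial members, was highest for 9 of 10 cardiomyocyte markers and 8 of 12 macrophage markers. The cardiomyocyte array with the highest endothelial values, replicate 1, was also highest for 6 of 8 fibroblast markers and 6 of 10 cardiomyocyte markers. Over all genes, the highest array was adult replicate 2 for 24.0%, adult replicate 1 for 26.1%, embryonic fibroblast replicate 3 for 30.2% and cardiomyocyte replicate 1 for 31.5%. The part of these other cells in the order of the endothelial genes was not tested.

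**Figure D3:**
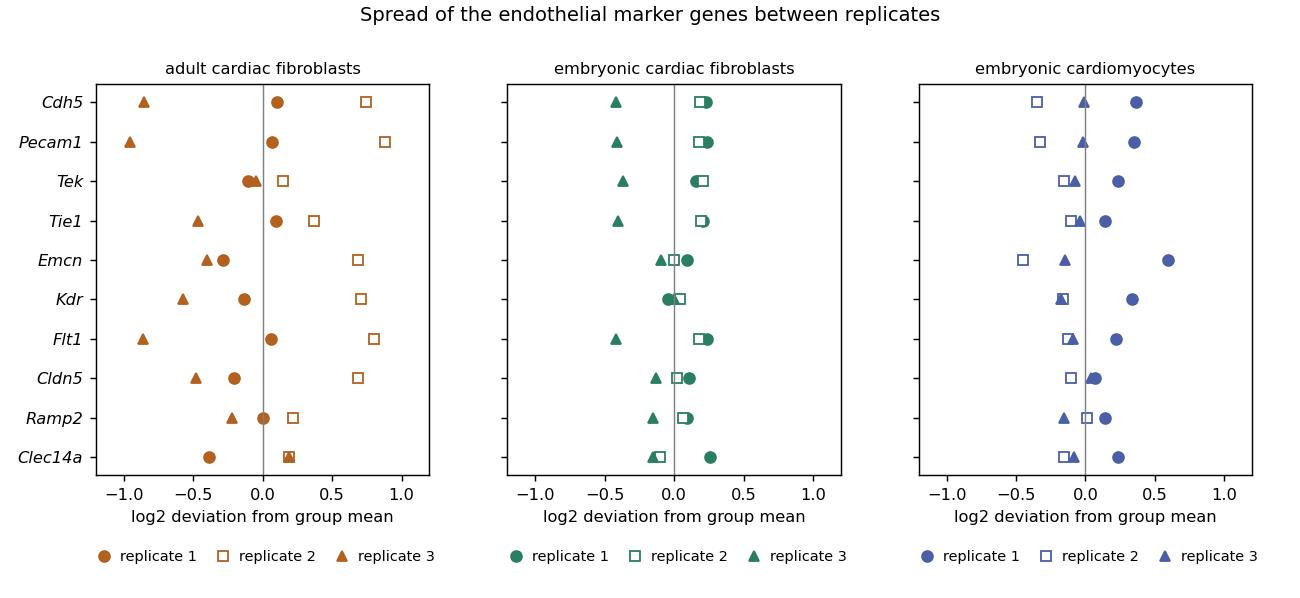
Log2 deviation (x axis) of each endothelial marker gene on each array from the mean of its group, by group; symbols are replicates. In adult fibroblasts replicate 2 lies right of 0 and replicate 3 left of it for most genes, in embryonic fibroblasts replicate 3 lies left, and in cardiomyocytes replicate 1 lies right for all 10 genes.

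Against the background of the other members, Cldn5 and Ramp2 stood out. Each member was set against the mean of the other 9 on the same array and centred over the 9 arrays. Cldn5 then lay at 0.48, 0.78 and 0.60 (log2) in adult fibroblasts, -1.08, -1.11 and -0.89 in embryonic fibroblasts, and 0.19, 0.50 and 0.53 in cardiomyocytes. Relative to the rest it was thus low in embryonic fibroblasts alone. Ramp2 lay at -0.72, -1.17 and -0.54 in adult fibroblasts, 0.44, 0.47 and 0.63 in embryonic fibroblasts, and 0.16, 0.52 and 0.21 in cardiomyocytes, so it was low in adult fibroblasts, with no overlap with the embryonic groups. These values are descriptions, since the members entered both sides of the difference.

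Likeness of profile was measured as the root mean square (RMS) difference between centred log2 values over the 9 arrays. Cdh5 and Pecam1 were the closest pair, at 0.068, and Flt1 was 0.139 from Pecam1. Tie1 and Kdr were nearest to each other at 0.258, and Clec14a was 0.325 from Tie1. Tek lay 0.368 from Flt1, Emcn 0.381 from Kdr and Ramp2 0.469 from Kdr. Cldn5 was the most isolated, 0.615 from Tie1, its nearest member. Ranked among all 19933 genes by distance from the mean profile of the members, Tie1 came at place 32 and Cldn5 at place 13805.

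Outside the 10 members, the genes with the profile most like their mean were Prkch (RMS 0.119), which encodes a protein kinase C, Fli1 (0.160), an ETS transcription factor of endothelial and blood cells, Tcim (0.161), Ctsh (0.163), a lysosomal cathepsin, Itpkb (0.163), an inositol trisphosphate kinase, Ppp1r13b (0.165), Gngt2 (0.166), a G protein gamma subunit, and Dennd5b (0.173). All 8 were called higher in embryonic fibroblasts than in cardiomyocytes, a property that follows in part from how they were chosen. Prkch had 8.44, 9.10 and 8.16 in adult fibroblasts, 9.05, 9.30 and 9.03 in embryonic fibroblasts, and 8.14, 7.51 and 7.79 in cardiomyocytes. Its highest adult and cardiomyocyte arrays, replicates 2 and 1, were those of the members, which also follows in part from that choice.

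Other genes of endothelial cells gave a wider view of the same arrays. Of 22 further surface and vessel genes, 10 rose in embryonic fibroblasts over cardiomyocytes, beside 10.3% of all genes. The other 12 did not pass (median of the 22 genes 0.56). Myct1, a gene of endothelial cells, had 8.31, 8.50 and 7.95 in embryonic fibroblasts against 6.56, 6.23 and 6.33 in cardiomyocytes, a rise of 1.88 ± 0.42 (3.68-fold, adjusted p = 0.0107). Cd93 rose by 1.63 ± 0.30 (adjusted p = 0.00445), Ptprb, the phosphatase that acts on Tek, by 1.59 ± 0.28 (adjusted p = 0.00315), and Eng, a TGF-beta coreceptor, by 1.24 ± 0.21 (adjusted p = 0.00267). The count was 6 without embryonic fibroblast replicate 1 or 2 or cardiomyocyte replicate 1 or 2, and these 4 genes kept their calls under all 17 other settings.

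Between adult and embryonic fibroblasts, 2 of the 22 were called higher and 1 lower, shares near or below the 8.34% and 11.2% of all genes. Single arrays moved these counts: 4 were higher without adult replicate 3 and no gene was without adult replicate 1 or embryonic fibroblast replicate 3, while 5 were lower without adult replicate 2 and no gene was without adult replicate 1 or embryonic fibroblast replicate 1 or 2. At an unadjusted p under 0.05, limma gave 5 higher and 6 lower, and no share of all genes was taken at that threshold. Adult fibroblasts had more of 9 of the 22 than cardiomyocytes, beside 17.4% of all genes, and more of 14 without adult replicate 3. Cd34, which stem and stromal cells carry as well as endothelium, had 11.18, 11.11 and 10.72 in adult fibroblasts against 9.29, 8.67 and 8.85 in cardiomyocytes, a rise of 2.07 ± 0.21 (4.20-fold, adjusted p = 4.08e-05). Myct1 rose by 1.91 ± 0.42 (adjusted p = 0.00539) and Cyyr1 by 1.37 ± 0.34 (adjusted p = 0.0107).

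Transcription factors of endothelial cells were called higher in embryonic fibroblasts than in cardiomyocytes for 10 of 18, beside 10.3% of all genes. Ets1, also active in mesenchyme and lymphocytes, rose by 2.08 ± 0.11 (4.24-fold, adjusted p = 1.72e-05), Fli1 by 1.29 ± 0.25 (adjusted p = 0.00568) and Hhex, an early endothelial and endodermal homeobox gene, by 1.22 ± 0.24 (adjusted p = 0.00622). In adult against embryonic fibroblasts 2 of 18 were called higher and 2 lower, near the 8.34% and 11.2% of all genes, and without adult replicate 3 the first count was 4. Hhex had 7.55, 8.08 and 7.03 in adult fibroblasts against 9.09, 8.60 and 9.06 in embryonic ones, with no overlap (-1.36 ± 0.24, adjusted p = 0.00361). Elk3 fell by 1.12 (log2 difference -1.12 ± 0.13, adjusted p = 0.000331), while Ets2 rose by 1.05 ± 0.18 (adjusted p = 0.00307). Against cardiomyocytes, adult fibroblasts had more of 10 of 18, beside 17.4% of all genes. Among the 10 were Epas1 (HIF-2 alpha, 1.64 ± 0.31, adjusted p = 0.00219) and Erg (1.38 ± 0.33, adjusted p = 0.00882).

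Of 9 ligands, some of them of partner receptors outside the members, 1 was called higher and 2 lower in embryonic fibroblasts against cardiomyocytes. The shares of all genes were 10.3% and 11.1%. Without adult replicate 3 the higher ones numbered 2, and the lower ones numbered 1 without embryonic fibroblast replicate 2 or cardiomyocyte replicate 1 or 2. Angpt1, the activating ligand of Tek, made by mural cells and cardiomyocytes, had 6.45, 6.67 and 7.81 in adult fibroblasts, 8.0, 8.28 and 8.50 in embryonic fibroblasts, and 10.01, 9.97 and 9.97 in cardiomyocytes. The groups did not overlap, and Angpt1 was highest in cardiomyocytes, where Tek was lowest. Embryonic fibroblasts were lower than cardiomyocytes (-1.72 ± 0.30, 3.30-fold, adjusted p = 0.00321), and so were adult fibroblasts (-3.00 ± 0.30 from cardiomyocytes, 8.02-fold, adjusted p = 4.03e-05). Vegfd rose in embryonic fibroblasts over cardiomyocytes by 1.06 ± 0.14 (adjusted p = 0.000725) and was lower in adult than in embryonic fibroblasts (-0.65 ± 0.14, adjusted p = 0.00849).

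In adult fibroblasts against cardiomyocytes, Pgf, the ligand of Flt1, rose by 2.45 ± 0.53 (5.46-fold, adjusted p = 0.00530), Adm, which encodes adrenomedullin, by 1.95 ± 0.42 (3.87-fold, adjusted p = 0.00499), and Angpt2, which can oppose Angpt1 at Tek, by 1.89 ± 0.46 (3.71-fold, adjusted p = 0.00929). Adult replicate 3 was the lowest of its group for all 3, as it was for most members: Pgf had 10.48, 11.14 and 8.47, Adm 10.02, 10.08 and 8.18, and Angpt2 9.69, 10.57 and 8.34 in adult fibroblasts. Of the 9 ligands, 5 were called higher and 2 lower in that comparison, beside 17.4% and 18.2% of all genes. Between adult and embryonic fibroblasts the counts were 4 and 2, beside 8.34% and 11.2% of all genes. The higher ones became 1 without embryonic fibroblast replicate 1 and 2 without adult replicate 1 or embryonic fibroblast replicate 2 or 3. The lower ones became 1 without adult replicate 2 or embryonic fibroblast replicate 3. With only the 2 groups in the fit, all 4 calls on the higher side were lost and the lower ones numbered 1. Vegfa had 9.97, 9.79 and 9.59 in adult fibroblasts, 9.42, 9.37 and 9.31 in embryonic fibroblasts, and 9.69, 9.66 and 9.64 in cardiomyocytes. It was among the 4 called higher in adult than in embryonic fibroblasts (0.42 ± 0.10, adjusted p = 0.0143), while its adult difference from cardiomyocytes was 0.12 ± 0.10 (adjusted p = 0.381).

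The 7 partner receptors included those of Ramp2. In adult fibroblasts against cardiomyocytes 3 were called higher and 2 lower, beside 17.4% and 18.2% of all genes. Calcrl, the receptor that RAMP proteins join, had 11.54, 11.31 and 11.14 in adult fibroblasts, 10.75, 10.94 and 10.77 in embryonic fibroblasts, and 9.69, 8.91 and 9.14 in cardiomyocytes. Unlike Ramp2 it was highest in adult fibroblasts. It rose in embryonic fibroblasts over cardiomyocytes by 1.57 ± 0.19 (2.97-fold, adjusted p = 0.000467) and in adult fibroblasts over cardiomyocytes by 2.08 ± 0.19 (4.23-fold, adjusted p = 1.92e-05), while its adult difference from embryonic fibroblasts was 0.51 ± 0.19 (adjusted p = 0.0921). Ramp1 was lower in adult fibroblasts than in cardiomyocytes (-0.70 ± 0.13, adjusted p = 0.00235), and Ramp3 was called higher in that comparison. Ramp3 had 7.12, 7.43 and 6.78 in adult fibroblasts, 6.78, 6.89 and 6.59 in embryonic fibroblasts, and 6.60, 6.58 and 6.78 in cardiomyocytes. Most of these values lay below 6.91, the level under which genes were left out as dim in 1 of the other settings. The neuropilins, VEGF and semaphorin coreceptors, went apart in adult fibroblasts against cardiomyocytes: Nrp2 rose by 2.28 ± 0.28 (4.84-fold, adjusted p = 0.000163) and Nrp1 was lower (-0.73 ± 0.12, adjusted p = 0.000778).

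Of 13 junction partners, 4 were called higher in embryonic fibroblasts than in cardiomyocytes, beside 10.3% of all genes. The number was 2 without embryonic fibroblast replicate 1 or 2 or cardiomyocyte replicate 1. Jam2, an adhesion molecule of endothelial and stromal cells, rose by 1.18 ± 0.18 (adjusted p = 0.00155), and Cgnl1 (paracingulin) by 1.09 ± 0.22 (adjusted p = 0.00695). In adult against embryonic fibroblasts these parted, with Jam2 higher by 1.07 ± 0.18 (adjusted p = 0.00240) and Cgnl1 lower (-1.11 ± 0.22, adjusted p = 0.00645). Ctnnd1, the p120 catenin that binds cadherins, was lower in adult than in embryonic fibroblasts (-0.59 ± 0.09, adjusted p = 0.00158). That comparison called 1 of the 13 higher and 2 lower, near the 8.34% and 11.2% of all genes. Of 9 Notch pathway genes, 4 rose in embryonic fibroblasts over cardiomyocytes, beside 10.3% of all genes. Jag1 rose by 1.44 ± 0.29 (adjusted p = 0.00645), Rbpj by 0.96 ± 0.13 (adjusted p = 0.000785) and Notch1 by 0.85 ± 0.14 (adjusted p = 0.00281).

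Genes of particular endothelia did not share a course. Npr3, the natriuretic peptide clearance receptor of embryonic endocardium and of some mesenchyme, had 7.61, 7.42 and 7.70 in adult fibroblasts, 10.83, 11.18 and 10.93 in embryonic fibroblasts, and 9.93, 9.54 and 9.55 in cardiomyocytes. It was lower in adult than in embryonic fibroblasts by 10.6-fold (-3.41 ± 0.14, adjusted p = 8.72e-07), with no overlap between any of the groups. Nfatc1, a transcription factor of the endocardium that forms valves, had 8.54, 8.50 and 8.57 in adult fibroblasts, 8.67, 8.78 and 8.41 in embryonic fibroblasts, and 7.66, 7.64 and 7.51 in cardiomyocytes. It rose in embryonic fibroblasts over cardiomyocytes by 1.02 ± 0.10 (adjusted p = 0.000221), and adult and embryonic fibroblasts overlapped. Of 5 lymphatic genes measured, 1 was called lower and 1 higher in embryonic fibroblasts than in cardiomyocytes, beside 11.1% and 10.3% of all genes. Prox1, which cardiomyocytes also use, fell there (-1.09 ± 0.18, adjusted p = 0.00238), whereas Lyve1, also a macrophage gene, was higher by 0.91 ± 0.12 (adjusted p = 0.000707). Adult fibroblasts had more Lyve1, Pdpn, Mmrn1 and Reln than cardiomyocytes and less Prox1, beside 17.4% and 18.2% of all genes. Against embryonic fibroblasts they had more Pdpn and Mmrn1 and less Prox1, beside 8.34% and 11.2% of all genes. The calls of Pdpn and Mmrn1 were lost with only the 2 groups in the fit.

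Of 7 capillary lipid genes, 5 were called higher in adult than in embryonic fibroblasts, beside 8.34% of all genes, and 3 without adult replicate 1 or 2 or with only the 2 groups in the fit. Against cardiomyocytes 3 of the 7 were called higher (Fabp4, Tcf15 and Meox2), beside 17.4% of all genes, and 7 without adult replicate 3. Fabp4, a fatty acid binding protein of capillary endothelium and fat cells, had 11.46, 12.01 and 10.86 in adult fibroblasts against 9.65, 9.64 and 10.06 in embryonic fibroblasts, a rise of 1.66 ± 0.29 (3.17-fold, adjusted p = 0.00343). Cd36, a fatty acid transporter also of macrophages and cardiomyocytes, rose by 2.01 ± 0.32 (4.03-fold, adjusted p = 0.00196), and its adult difference from cardiomyocytes was 0.90 ± 0.32 (adjusted p = 0.0574). Meox2, a homeobox gene of heart capillaries and of mesenchyme, rose by 0.98 ± 0.11 (1.97-fold, adjusted p = 0.000236). For Fabp4 and Cd36, as for Cldn5, adult replicate 2 was the highest array and replicate 3 the lowest, and Meox2 did not follow that order, with 8.20, 8.15 and 8.31.

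Markers of other cells moved with these groups. The mean of 12 macrophage markers lay at 8.48 to 9.17 on adult fibroblast arrays, 8.0 to 8.35 on embryonic fibroblast arrays and 7.33 to 7.52 on cardiomyocyte arrays, without overlap. Of the 12, 7 were called higher in embryonic fibroblasts than in cardiomyocytes, beside 10.3% of all genes. That count was 3 without embryonic fibroblast replicate 1 or 3 or cardiomyocyte replicate 1 or 2, and 4 without cardiomyocyte replicate 3. Adult fibroblasts had more of 10 of the 12 than cardiomyocytes, beside 17.4% of all genes. Between adult and embryonic fibroblasts 5 of the 12 were called higher and 1 (Aif1) lower, beside 8.34% and 11.2% of all genes. The other 6 did not pass. The higher ones numbered 3 without embryonic fibroblast replicate 2 or with only the 2 groups in the fit. The call of Aif1 was lost in that fit, without any single array other than adult replicate 2, with arrays centred on their median and with quantile normalization. Ptprc (CD45), the pan-leukocyte gene, was higher in adult than in embryonic fibroblasts by 2.09 ± 0.27 (4.25-fold, adjusted p = 0.000638). Pecam1, which leukocytes share, differed by -0.44 in that comparison and did not pass.

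Of 5 platelet markers measured, 2 were called higher in embryonic fibroblasts than in cardiomyocytes, beside 10.3% of all genes. Pf4, a platelet chemokine also of macrophages, rose by 1.57 ± 0.25 (adjusted p = 0.00214). Itga2b, the platelet integrin, had 8.06, 8.28 and 7.77 in embryonic fibroblasts against 7.45, 7.76 and 7.63 in cardiomyocytes. Its rise of 0.43 ± 0.13 (adjusted p = 0.0489) was lost without any single cardiomyocyte array, among other settings. In adult fibroblasts against cardiomyocytes Pf4 was the 1 platelet marker called higher (2.64 ± 0.25, adjusted p = 2.88e-05), beside 17.4% of all genes. All 8 fibroblast markers were also higher in embryonic fibroblasts than in cardiomyocytes, beside 10.3% of all genes. Of 9 mesothelial markers, 7 were lower in adult than in embryonic fibroblasts, beside 11.2% of all genes. Ramp2, Emcn, Tek and Clec14a were lower and Cldn5 was higher in that comparison. The mean of 10 mural cell markers lay at 8.30 to 8.84 in adult fibroblasts, 8.96 to 9.0 in embryonic fibroblasts and 9.08 to 9.17 in cardiomyocytes. That mean joins genes that went opposite ways. Against cardiomyocytes, adult fibroblasts had 3 of the 10 higher and 5 lower, beside 17.4% and 18.2% of all genes. The higher were the pericyte gene Rgs5 (3.70 ± 0.31, adjusted p = 1.41e-05), Pdgfrb and the smooth muscle gene Myh11. The lower were Abcc9, Cspg4, Mcam, Cnn1 (-3.99 ± 0.19, adjusted p = 5.38e-07) and Acta2 (-3.28 ± 0.37, adjusted p = 9.29e-05). Cnn1 and Acta2 are smooth muscle genes as well, so genes of that class went both ways. Cnn1 was also lower in embryonic fibroblasts than in cardiomyocytes (-1.77 ± 0.19, adjusted p = 0.000310). Which cells of the cardiomyocyte preparation held Cnn1 and Acta2 was not tested. The part of the other cell types in the levels of the endothelial genes was not tested either.

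**Figure D4:**
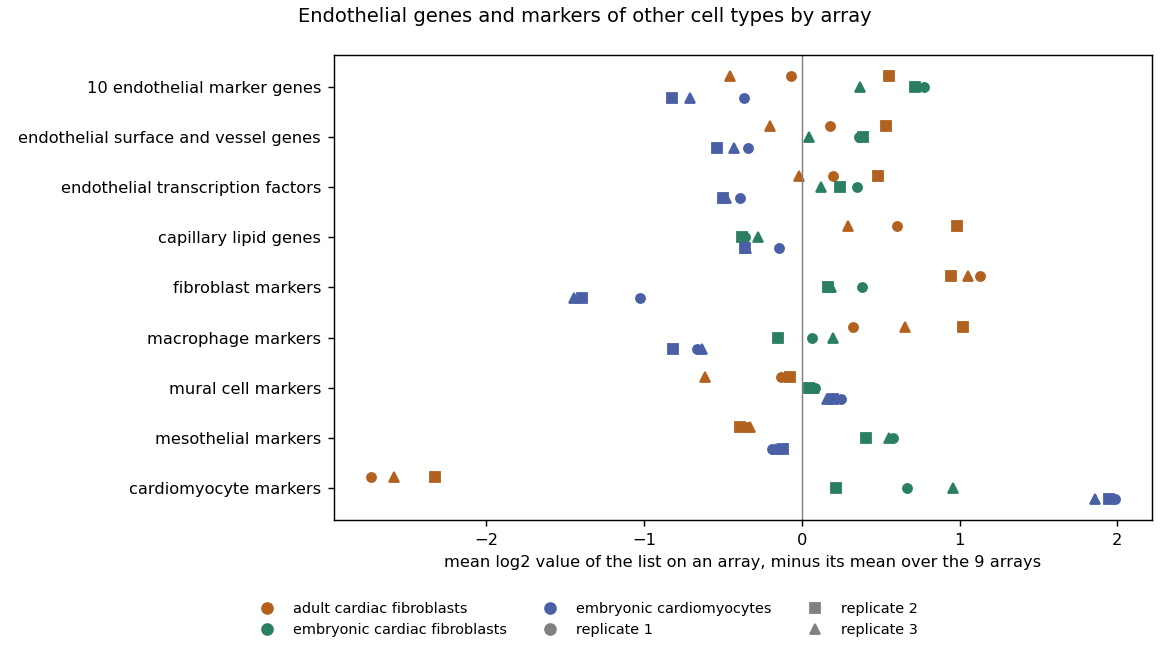
Mean log2 value of each gene list on each array, minus its mean over the 9 arrays (x axis); colours are groups and symbols replicates. The 10 endothelial marker genes are highest on the embryonic fibroblast arrays and lowest on the cardiomyocyte arrays on average, capillary lipid genes and macrophage markers are highest on adult fibroblast arrays, and cardiomyocyte markers run the other way, with embryonic fibroblasts in between.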

How the data were processed

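Expression was measured on 9 Affymetrix mouse Gene 1.0 ST arrays, 3 for each group, from RNA extracted with Trizol, per the labels' protocols. The submitters' processing notes name RMA, without a version, as the step by which the authors obtained these values. No source states the base of the logarithm. Since they lie between 2.70 and 14.20, the deposited numbers were taken as log2, the usual RMA scale. A single normalization of all arrays, a genome build and a probe annotation were not given in the sources used here. RMA compresses differences of dim genes, and folds inherit that.

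Of 28767 probes, 21776 carried a single gene symbol in the platform annotation, 1618 several and 5373 none, and the last 2 kinds were left out. The probe with the highest mean stood for a gene, which left 19933 genes. A mean for each of the 3 groups was fitted to the log2 values of all 9 arrays by limma's lmFit and eBayes (version 3.58.1, R 4.3.3), two-sided, with Benjamini-Hochberg adjustment over all genes and a threshold of 0.05. The fit was tested on simulated data with 200 changed genes. No filter was set on dim genes. Median shifts of all genes were -0.0003, 0.04 and 0.06 in the order of the comparisons given. Nothing beyond the labels' word shows that the replicates came from separate animals or litters. The number of arrays limits the precision.

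The members and gene lists were chosen with earlier results of these data known. Genes named besides the members are up to 4 called genes of each list with the largest difference per comparison, and the 8 non-members most like the members' mean profile, predicted loci left out. Vegfa and Ramp3 were named outside that rule, after their values were seen. Of the lists, 161 genes in 17 lists were looked for. The alternatives comprised the replicate number as a block, centring arrays on their median, quantile normalization, leaving out the 5265 genes below the 30th percentile of all probes, the mean of all probes of a gene, array weights, only the 2 groups compared, an intensity trend and leaving out each array in turn, 17 settings in all. The replicate numbers were not used to pair the arrays in the main fit. Promoter sequences are from the RefSeq table of GRCm38.p6. Python 3.11.15 and matplotlib 3.10.9 drew the figures.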

Additional observations from a re-analysis of the deposited data

How the results depend on the processing

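No difference of a member changed sign with a call under any of the 17 other settings. Of 170 repeats of the members' differences in each comparison, 19 lost a call and none gained one for embryonic fibroblasts against cardiomyocytes, 23 lost and 5 gained one for adult against embryonic fibroblasts, and 16 lost and 6 gained one for adult fibroblasts against cardiomyocytes. When single arrays were left out, members called higher numbered 4 to 9 (9 with all arrays), 0 to 1 (1) and 1 to 5 (5) in these 3 comparisons, and members called lower numbered 1 to 5 (4) between the fibroblast groups and 0 to 1 (0) against cardiomyocytes. With only the 2 groups compared, the member called higher in adult than in embryonic fibroblasts was lost, giving 0. In that setting 2 members instead of 5 were called higher in adult fibroblasts than in cardiomyocytes. No member lost its call there for embryonic fibroblasts against cardiomyocytes. Ramp2 became the 1 member called lower in adult fibroblasts than in cardiomyocytes with the replicate block (adjusted p = 0.0192), with dim genes left out (0.0475) and with array weights (0.0362). Array weights, which gave adult fibroblast replicate 3 a weight of 0.215, took the genes called between embryonic fibroblasts and cardiomyocytes to 6465, against 4266 without them. With these weights Tie1 and Kdr were also called lower in adult than in embryonic fibroblasts, so that 6 members were. The cause of these moves was not tested.

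Whether replicate numbers shared between groups pair the samples was not settled by the values. Deviations from the group means correlated at -0.20 to 0.20 over genes, and not every pair lay above 0.1. Such correlations cannot exclude a shared preparation. With the replicate block, Clec14a lost its calls (adjusted p = 0.0589 for embryonic fibroblasts against cardiomyocytes, 0.0803 for adult against embryonic fibroblasts) and Tie1 gained one in the second (0.0482), so that members called higher in embryonic fibroblasts than in cardiomyocytes numbered 8.

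Several adjusted p-values lie close to 0.05, and 3 arrays a group limit what can be told for genes that vary as much as these. Values near the floor of an array cannot be told from background on this scale.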
